A study of Mus musculus with 8 samples.

Results

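The genes described here are 10 products of the granulocyte lineage that were measured in osteoclast cultures: the primary granule enzymes Mpo, Elane, Prtn3 and Ctsg, the secondary granule genes Ltf, Camp, Ngp and Lcn2, and the cytosolic pair S100a8 and S100a9. They were chosen by name and matched by Ensembl identifier, and all 10 were found among the 46517 genes of the table. All 10 also passed the filter on low values (4 or more libraries at 10 or above), as did 14139 genes in all, and these were tested. The study grew osteoclasts, the multinucleated cells that resorb bone, from the femoral marrow of 6 to 8-week-old Elmo1-/- mice and Elmo1+/- mice. Marrow cells of both genotypes were kept on petri dishes for 16 h, and the cells in suspension were collected and cultured with 10% medium conditioned by L929 cells, a source of M-CSF. In the study's methods this was a step of its own, after which only the cells attached to the dishes were taken and replated with GST-RANKL, whereas the sample labels name both factors together. GST-RANKL was given at 50 ng/ml for 7 days. The Elmo1-/- mice lacked Elmo1, an adapter protein gene, in all cells, whereas the Elmo1+/- controls kept 1 intact copy. Control libraries are titled WT but carry the genotype label Elmo1+/-, which is used here. Each of 4 mice per genotype gave 1 mRNA library, read in pairs of 75 bp, with 2 mice per genotype in each of 2 experiments, and which mice shared an experiment is not stated.

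Neutrophils store their antimicrobial proteins in granules that are filled one after another as the cell matures. Primary (azurophil) granule proteins are made at the promyelocyte stage, secondary (specific) granule proteins follow at the myelocyte and metamyelocyte stages, and S100A8 and S100A9, which form the calcium-binding complex calprotectin, fill the cytosol of neutrophils and are made by monocytes too. Marrow cells in suspension include granulocytes and their precursors, osteoclasts arise from the monocyte lineage, and taking only attached cells before GST-RANKL leaves behind cells that do not adhere. In a bulk library, fewer cells of a type and less RNA per cell cannot be told apart.

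Elmo1 itself was read first as a check of the labels. Its normalized counts were 1423 to 1769 in the Elmo1+/- libraries and 274 to 316 in the Elmo1-/- libraries, a log2 difference of -2.44 (adjusted p = 8.4e-06, limma with Benjamini-Hochberg adjustment over all genes tested). The libraries held 20905502 to 40846651 reads on genes, the fewest in Elmo1+/- mouse 3, where 1 read is worth a normalized count of 1.52. The first principal component, with 62.3% of the variance, parted mice 1 and 2 of both genotypes from mice 3 and 4, and members are therefore also given between these pairs of numbers. Markers of the labelled cell type were high: Ctsk, the collagen-degrading protease of osteoclasts, had 69531 to 328165 normalized counts and Acp5, the tartrate-resistant phosphatase, 69893 to 253274. All 9 osteoclast markers were called higher in mice 3 and 4 than in mice 1 and 2 (Ctsk by a log2 of 1.58, adjusted p = 0.000736 by limma). Of all 14139 genes, 4603 (32.6%) were called between these sets, 2400 of them higher in mice 3 and 4. The split was itself taken from these data.

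The members covered a wide range of levels. Per kilobase of exon, S100a8 had the highest mean normalized count over the 8 libraries, 18502 per kb, with a range of 12304 to 25517. S100a9 followed at 3325 per kb (939 to 7739), Lcn2 at 1520 per kb (1250 to 1938) and Ngp at 364 per kb (135 to 789). Camp (114 per kb, range 70.3 to 185) and Ltf (101 per kb, range 23.8 to 239) were lower. The 4 primary granule genes had the lowest levels, with means of 30.8 per kb for Prtn3, 26.8 for Mpo, 25.05 for Ctsg and 16.9 for Elane. In this order the lowest S100a8 value lay above the highest S100a9 value, and the lowest Lcn2 value lay above the highest Ngp value. The ranges of all other neighbours overlapped, so that the primary granule genes could not be ranked among themselves.

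**Figure D1:**
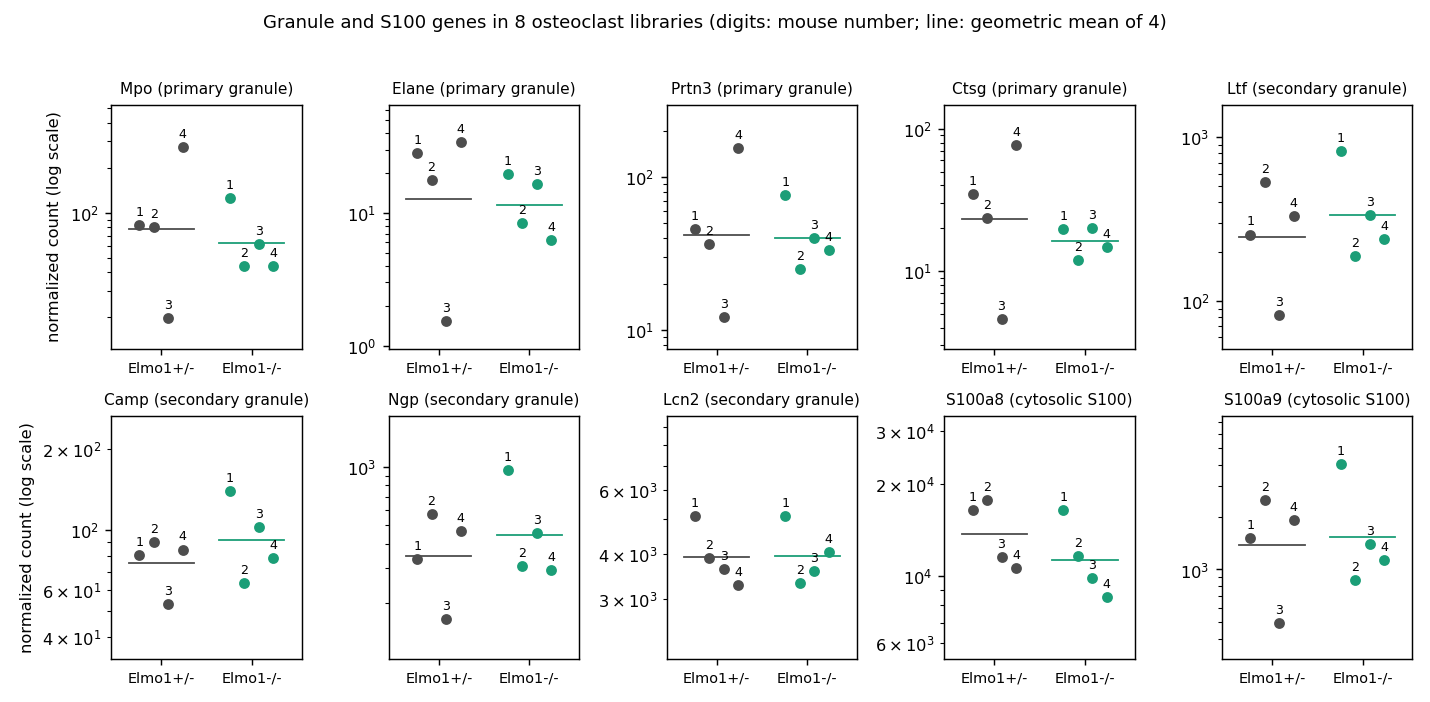
Normalized count (log axis, 1 axis per gene) of each of the 10 genes in the 4 Elmo1+/- libraries (grey) and the 4 Elmo1-/- libraries (green). Digits give the mouse number and lines the geometric mean of 4 libraries. Elmo1+/- mouse 4 is highest for the 4 primary granule genes, Elmo1-/- mouse 1 is highest for Ltf, Camp, Ngp and S100a9, and Elmo1+/- mouse 3 is lowest for all of these 8 genes.

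Mpo (ENSMUSG00000009350, chromosome 11 of GRCm38, 87793581 to 87804413, plus strand) encodes myeloperoxidase, which makes hypochlorous acid in the phagosome. It was read at normalized counts of 82.8, 80.1, 19.8 and 275 among Elmo1+/- mice 1 to 4, against 125, 44.3, 61.8 and 44.3 among Elmo1-/- mice 1 to 4. The Elmo1+/- libraries held both the highest and the lowest value, 13.9-fold apart, and the Elmo1-/- libraries lay between them. Means were 114 ± 111 (SD, n = 4) in the Elmo1+/- and 68.8 ± 38.3 (SD, n = 4) in the Elmo1-/- libraries, and the log2 difference of normalized count + 1 was -0.32 with a standard error of 0.70 (exact two-sided permutation test over the 70 arrangements of 4 and 4 libraries, p = 0.686). Such a difference is smaller than the spread between mice of one genotype.

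Prtn3 (ENSMUSG00000057729, chromosome 10, 79874476 to 79883174, plus strand) encodes proteinase 3, a serine protease of the same granules. It had 46.0, 36.6, 12.2 and 156 normalized counts among Elmo1+/- mice 1 to 4, against 76.6, 25.1, 40.1 and 33.5 among Elmo1-/- mice 1 to 4. The order of the libraries was nearly that of Mpo, with Elmo1+/- mouse 4 first, Elmo1-/- mouse 1 second and Elmo1+/- mouse 3 last. The log2 difference between genotypes was -0.087 ± 0.68 (standard error, exact permutation p = 0.914). On the opposite strand Prtn3 overlaps Plppr3, a gene at 4.57 to 19.2 normalized counts in these libraries, and how reads were assigned where the genes overlap is not given in the sources used here.

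Elane (ENSMUSG00000020125, chromosome 10, 79886247 to 79888215, plus strand) encodes neutrophil elastase and begins 3072 bases beyond the end of Prtn3. Counts after normalization were 28.5, 17.8, 1.52 and 34.3 among Elmo1+/- mice 1 to 4, against 19.9, 8.38, 16.7 and 6.22 among Elmo1-/- mice 1 to 4. Elmo1+/- mouse 3 held a single read of it, so its value has a 95% Poisson interval of 0.0386 to 8.48 normalized counts, which covers counting error only. Elane was the member with the largest ratio between its highest and lowest library, 22.5-fold. Between genotypes its log2 difference was -0.24 ± 0.80 (standard error, exact permutation p = 0.8286).

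Ctsg (ENSMUSG00000040314, chromosome 14, 56099881 to 56102574, minus strand) encodes cathepsin G, the chymotrypsin-like protease of primary granules. It had 34.9, 23.7, 4.57 and 77.1 normalized counts among Elmo1+/- mice 1 to 4, against 19.9, 11.97, 20.03 and 14.8 among Elmo1-/- mice 1 to 4. All 4 Elmo1-/- libraries thus fell inside the range of the Elmo1+/- libraries, whose lowest value rests on 3 reads. The log2 difference was -0.53 ± 0.69 (standard error, exact permutation p = 0.571).

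The 4 primary granule genes therefore shared a negative difference between genotypes that none of them carried past the test. Without Elmo1+/- mouse 4 the sign turned for each of them, to a log2 of 0.29 for Mpo, 0.53 for Prtn3, 0.17 for Elane and 0.023 for Ctsg. Without Elmo1+/- mouse 3, the opposite extreme, the differences were -0.96, -0.66, -1.10 and -1.25 in the same order, again with no call.

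Ltf (ENSMUSG00000032496, chromosome 9, 111019271 to 111042767, plus strand) encodes lactoferrin, the iron-binding protein of secondary granules. Normalized counts of Ltf were 255, 529.9, 82.2 and 330.3 among Elmo1+/- mice 1 to 4, against 824, 188, 334 and 239 among Elmo1-/- mice 1 to 4. Here the highest library was Elmo1-/- mouse 1 and the second Elmo1+/- mouse 2, and Elmo1+/- mouse 4, the first for every primary granule gene, ranked behind Elmo1-/- mouse 3 as well. The log2 difference between genotypes was 0.44 ± 0.61 (standard error, exact permutation p = 0.571), and it was -0.088 without Elmo1+/- mouse 3.

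Ngp (ENSMUSG00000032484, chromosome 9, 110419747 to 110423012, plus strand), the neutrophilic granule protein related to the cathelicidins, had 334, 572, 165 and 466 normalized counts among Elmo1+/- mice 1 to 4, against 964, 309, 457 and 295 among Elmo1-/- mice 1 to 4. Camp (ENSMUSG00000038357, chromosome 9, 109847379 to 109849617, minus strand), the gene of the cathelicidin antimicrobial peptide, had 80.9, 89.97, 53.3 and 84.7 normalized counts among Elmo1+/- and 140.0, 63.5, 103 and 78.6 among Elmo1-/- mice 1 to 4. Both genes put Elmo1-/- mouse 1 first and Elmo1+/- mouse 3 last, as Ltf did, but Camp spanned only 2.63-fold against 5.86-fold for Ngp. Their log2 differences between genotypes were 0.36 ± 0.46 for Ngp and 0.28 ± 0.27 for Camp (standard errors, exact permutation p = 0.629 and 0.4). The difference of Ngp was -0.0052 without Elmo1-/- mouse 1, and that of Camp stayed positive whichever library was left out (0.078 to 0.45). Ltf, Ngp and Camp lie within 1170 kb of each other on chromosome 9, with Ngp in the middle.

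Lcn2 (ENSMUSG00000026822, chromosome 2, 32384633 to 32388252, minus strand) encodes lipocalin 2, which binds bacterial siderophores and is made by macrophages and epithelia as well as by neutrophils. It had 5081, 3892, 3621 and 3279 normalized counts among Elmo1+/- mice 1 to 4, against 5084, 3316, 3579 and 4052 among Elmo1-/- mice 1 to 4. The values spanned only 1.551-fold, the narrowest range of the 10 members. The means were 3968 ± 783 and 4008 ± 779 (SD, n = 4 each), a log2 difference of 0.015 ± 0.17 (standard error, exact permutation p = 0.886).

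S100a8 (ENSMUSG00000056054, chromosome 3, 90668978 to 90670035, plus strand) and S100a9 (ENSMUSG00000056071, chromosome 3, 90692632 to 90695721, minus strand) lie 22.6 kb apart and encode the partners of calprotectin. S100a8 had 16423, 17708, 11496 and 10613 normalized counts among Elmo1+/- mice 1 to 4, against 16438, 11653, 9854 and 8539 among Elmo1-/- mice 1 to 4. S100a9 had 1512, 2494, 490 and 1929 among Elmo1+/- and 4040, 874, 1407 and 1139 among Elmo1-/- mice 1 to 4. The partners differed in pattern: S100a8 spanned 2.07-fold and was higher in every library of mice 1 and 2 than in any of mice 3 and 4, whereas S100a9 spanned 8.24-fold in nearly the order of libraries seen for Ltf and Ngp. Log2 differences between genotypes were -0.28 ± 0.23 for S100a8 and 0.17 ± 0.59 for S100a9 (standard errors, exact permutation p = 0.343 and 0.857). That of S100a9 became -0.33 without Elmo1+/- mouse 3 and -0.30 without Elmo1-/- mouse 1.

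Per kilobase of exon, S100a8 exceeded S100a9 in every library. The ratio was 8.17, 5.34, 17.6 and 4.14 among Elmo1+/- mice 1 to 4, against 3.06, 10.0, 5.27 and 5.64 among Elmo1-/- mice 1 to 4. It was thus highest where S100a9 was lowest and lowest where S100a9 was highest. Between genotypes the ratio was 8.82 ± 6.11 in the Elmo1+/- and 6.00 ± 2.92 in the Elmo1-/- libraries (SD, n = 4 each, exact two-sided permutation p = 0.457).

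**Figure D2:**
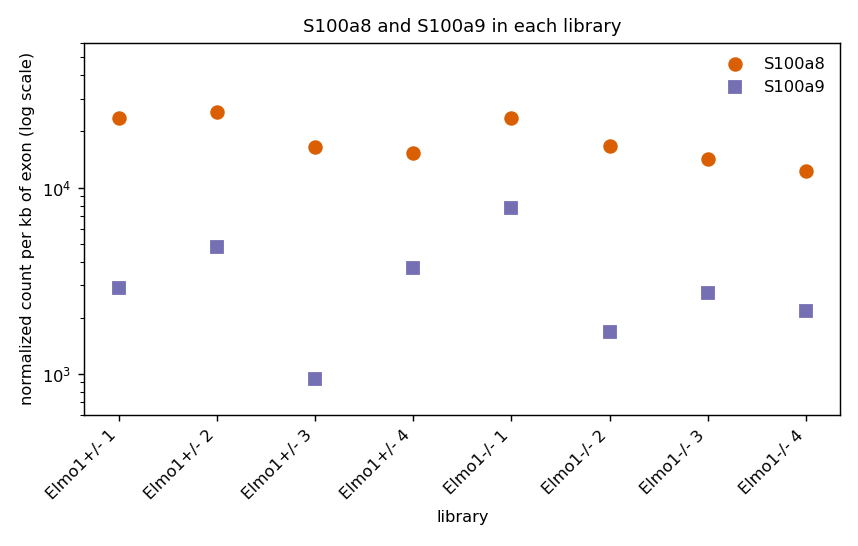
Normalized counts per kilobase of exon (log axis) of S100a8 (orange circles) and S100a9 (purple squares) in the 8 libraries. S100a8 lies between 12304 and 25517 per kb and S100a9 between 939 and 7739 per kb, so that the gap between the points is widest in Elmo1+/- mouse 3 and narrowest in Elmo1-/- mouse 1.

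Over all 10 members, 0 were called between genotypes (smallest adjusted p = 0.9999, limma with Benjamini-Hochberg adjustment), and 0 had an unadjusted p under 0.05. Over all 14139 genes 1 was called (0.00707%), which was Elmo1 itself, so a count of 0 of 10 members does not stand apart from the background. The quasi-likelihood test of edgeR and the Wald test of DESeq2 on the recovered reads, and the fit with the replicate number as a block, likewise called 0 of 10 members. The differences of the primary granule genes were larger in these count models than by limma. With DESeq2 they were -0.74 for Mpo, -0.70 for Elane, -0.52 for Prtn3 and -1.08 for Ctsg. With edgeR they were -0.75, -0.74, -0.54 and -1.10 in the same order. Those of the other members changed little, for example Ltf (0.40 with DESeq2 and 0.39 with edgeR). By limma the median log2 difference was -0.036 over the members and -0.0031 over all genes tested, with 5 members above 0 and 5 below. In 0 of 10 members did the genotypes separate without overlap, against 133 of the 14139 genes (0.941%). The differences of the granule genes also did not differ detectably between mice 1 and 2 and mice 3 and 4 (interaction term of limma, smallest unadjusted p = 0.375, that of Lcn2).

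**Figure D3:**
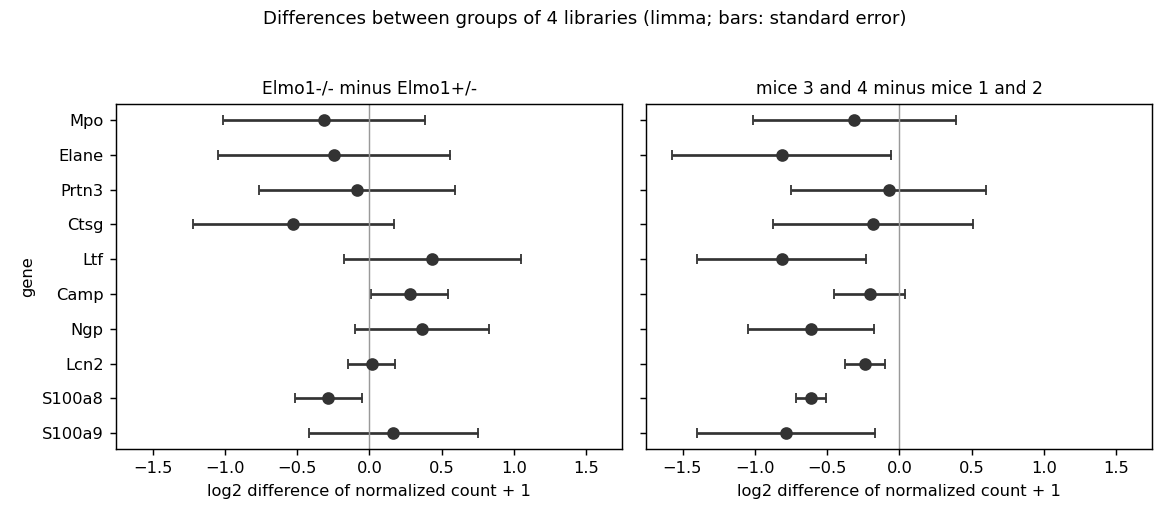
Log2 differences of normalized count + 1 for the 10 genes, Elmo1-/- minus Elmo1+/- (left) and mice 3 and 4 minus mice 1 and 2 (right), with standard errors from limma. On the left the points lie on both sides of 0 (-0.53 for Ctsg to 0.44 for Ltf); on the right all 10 lie below 0, and only S100a8 passed the test.

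Most of the granule genes varied widely over the 8 libraries of both genotypes. The ranks below are not adjusted for level. Ranked by the standard deviation of log2 values over the 8 libraries, Elane stood in the top 0.439% of the 14139 genes, Mpo in the top 0.721%, Ctsg in the top 0.743% and Prtn3 in the top 1.03%. Ltf (top 1.32%), S100a9 (top 1.73%) and Ngp (top 3.86%) followed, while Camp (top 15.8%), S100a8 (top 17.9%) and Lcn2 (top 35.8%) varied less. The spread exceeded counting error for every member. A chi-square of the reads per degree of freedom, which would be near 1 for counting error alone, was lowest for Elane at 6.87 and highest for S100a8 at 1048, the member with the most reads.

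These variations were shared among the primary granule genes and, in part, among the secondary ones. Over the 8 libraries, all 6 pairs of primary granule genes had a Pearson r of at least 0.8 on log2(normalized count + 1), from 0.861 for Elane with Prtn3 to 0.983 for Mpo with Prtn3. Of all pairs of tested genes, 7.61% had an r this high. For Mpo and Prtn3, each was the gene of the 14138 others with the highest r to its partner (Spearman rho 0.976, exact permutation p = 0.000124 for r and 0.000397 for rho, unadjusted, 1 of 45 pairs of members computed). Elane and Ctsg had r = 0.929 and rho = 0.905 (exact permutation p = 0.000397 and 0.00456), and this was 0.913 without the 2 libraries farthest from the median of Elane. Mpo with Ctsg (0.936) and Prtn3 with Ctsg (0.915) rested more on Elmo1+/- mice 3 and 4, the lowest and the highest library, and were 0.639 and 0.498 without them. With the 2 farthest libraries left out for each pair, 3 of the 6 pairs stayed at 0.8 or above.

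Among the secondary granule genes, Ltf, Camp and Ngp formed a comparable set and Lcn2 stood outside it. Ltf and Ngp had r = 0.984 and rho = 0.952 (exact permutation p = 0.000149 and 0.00114), and each was again the gene with the highest r to the other among all those tested. Ltf with Camp had r = 0.935 and Camp with Ngp 0.938. Lcn2 reached only 0.436 with Ltf, 0.519 with Camp and 0.383 with Ngp. S100a9 moved with the secondary granule genes, with r = 0.982 to Ltf (rho 0.929, exact permutation p = 0.000198 and 0.00223), 0.969 to Ngp and 0.914 to Camp. Without the 2 farthest libraries, Elmo1+/- mouse 3 and Elmo1-/- mouse 1, these were 0.930, 0.866 and 0.645. Ltf with Ngp was then 0.939, while Ltf with Camp fell to 0.742 and Camp with Ngp to 0.702. S100a8, its calprotectin partner, had r = 0.540 to S100a9 and 0.340 to 0.473 to Ltf, Camp and Ngp.

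Over the 8 libraries the relation between the classes was looser. None of the 16 pairs of a primary with a secondary granule gene reached 0.8 (0.0844 to 0.745, median 0.644), and the 12 of these 16 pairs that do not involve Lcn2 lay between 0.482 and 0.745. In all, 12 of the 45 pairs of members had an r of at least 0.8: 6 among primary granule genes, 3 among Ltf, Camp and Ngp, and 3 of S100a9 with these. With the means of mice 1 and 2 and of mice 3 and 4 removed first, 14 of 45 pairs reached 0.8, against 3.9% of all pairs of tested genes, the additional pairs being S100a9 with Mpo (0.811) and with Prtn3 (0.827). The division was less firm in fewer libraries. Without the 2 farthest libraries 7 of the 16 pairs between the classes reached 0.8, among them Mpo with Ltf (0.860), Camp (0.815) and Ngp (0.852) and Prtn3 with Camp (0.912), against 3 of 6 pairs of primary granule genes. Within mice 1 and 2 alone, a set of 4 libraries, 2 of the 6 primary granule pairs reached 0.8 (Mpo with Prtn3 at 0.964 and Elane with Ctsg at 0.958, and the lowest, Prtn3 with Ctsg, at 0.449), as did 7 of the 16 pairs between the classes. Within mice 3 and 4 all 6 primary granule pairs did (0.941 to 0.999), and 8 of the 16 pairs between the classes. The 6 pairs among Ltf, Camp, Ngp and S100a9 reached 0.8 in both sets (0.941 to 0.986 and 0.872 to 0.978). Without Elmo1+/- mouse 4, 21 of 45 pairs reached 0.8, the largest change from leaving out 1 library.

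**Figure D4:**
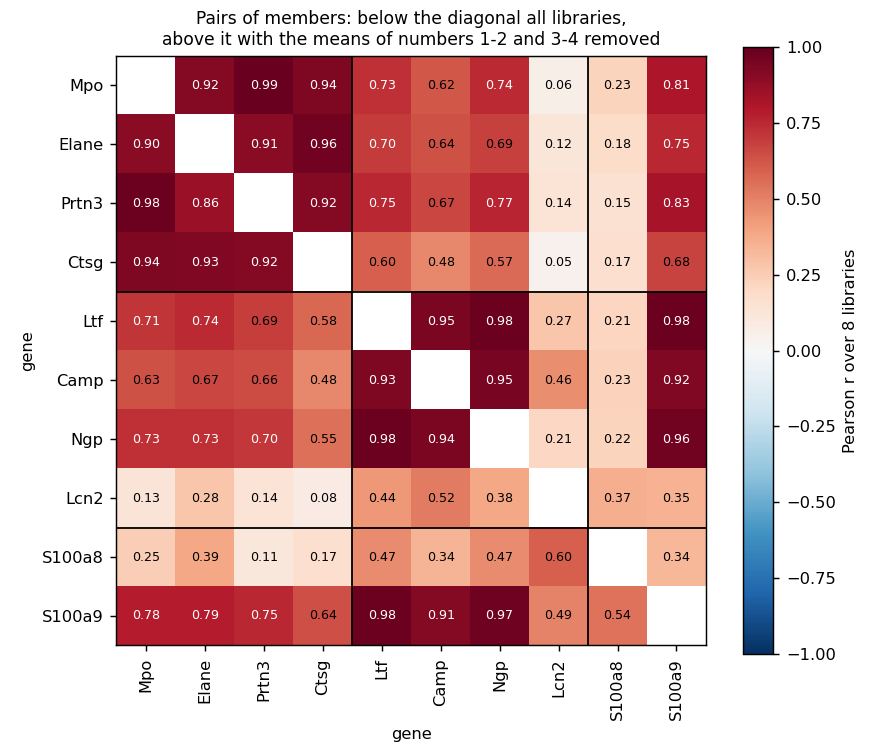
Pearson r over the 8 libraries for every pair of the 10 genes, below the diagonal from all values and above it with the means of mice 1 and 2 and of mice 3 and 4 removed. Lines part primary granule, secondary granule and S100 genes. Dark blocks stand out below the diagonal, the primary granule genes (0.86 to 0.98) and Ltf, Camp and Ngp with S100a9 (0.91 to 0.98), while the rows of Lcn2 and S100a8 are pale.

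Scores made for each class as the mean of its standardized log2 values are given by library. The primary granule score, in SD units, was 0.49, 0.15, -1.72 and 1.59 among Elmo1+/- mice 1 to 4, against 0.52, -0.57, 0.028 and -0.49 among Elmo1-/- mice 1 to 4. The secondary granule score was 0.22, 0.45, -1.37 and -0.12 among Elmo1+/- and 1.62, -0.75, 0.17 and -0.21 among Elmo1-/- mice 1 to 4. Low libraries were thus low in both, with Elmo1+/- mouse 3, the library with the fewest reads, lowest, whereas the highest library differed between the classes. The same can be read from Ltf over Mpo per kilobase, which was 1.19 in Elmo1+/- mouse 4 and 3.06 to 6.57 in the other 7 libraries (means 3.73 ± 2.24 among Elmo1+/- and 5.37 ± 0.95 in Elmo1-/-, SD, n = 4 each, exact permutation p = 0.2).

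**Figure D5:**
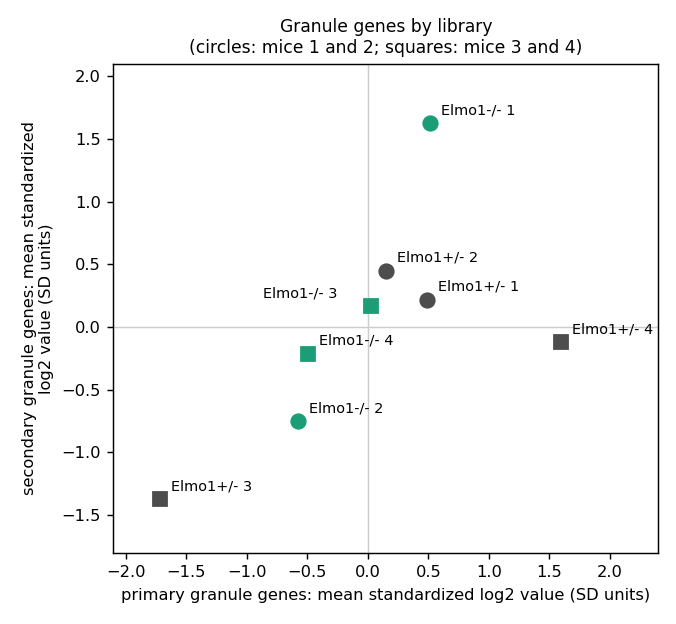
Mean standardized log2 value of the 4 primary granule genes (x axis) against that of the 4 secondary granule genes (y axis), in SD units, for each library. Elmo1+/- libraries are grey and Elmo1-/- libraries green, with circles for mice 1 and 2 and squares for mice 3 and 4. Elmo1+/- mouse 4 stands far to the right at 1.59 with a secondary score of -0.12, and Elmo1-/- mouse 1 stands at the top at 1.62 with a primary score of 0.52.

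The letters around the RefSeq start (GRCm38.p6) of each member were compared. Promoter windows ran from 250 bases before to 50 after that start. It lay 5191 bases from the GENCODE start for Prtn3, 513 for Lcn2, 203 for Mpo and at most 161 for the other members. The matches printed below for Prtn3 and Lcn2 thus lie inside the gene spans given above. All 10 members matched a window, and 27025 genes of the table served as the background. The motifs AGGAAGT, TTGCNNAA and TAACNG were searched on both strands. AGGAAGT is an ets sequence of the kind bound by the myeloid factor PU.1. TTGCNNAA is a core of the sequence bound by C/EBP factors, and TAACNG is bound by MYB. The first letters were found in 5 of 10 members and in 9.57% of all windows, including all 4 primary granule genes, where they read in the direction of transcription and are shown in capitals with 11 bases on either side:
Mpo, chr11:87793550-87793578, plus strand: tggagagagagAGGAAGTtgcctttgtcc
Prtn3, chr10:79879562-79879590, plus strand: aaactggaaggAGGAAGTgggacccacag
Elane, chr10:79886217-79886245, plus strand: gtgtcccagggAGGAAGTagggctgtggc
Ctsg, chr14:56102763-56102791, minus strand: agaggaagaaaAGGAAGTagtcacctgtt

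The fifth match was in S100a8, on the opposite strand. TTGCNNAA was found in 4 of 10 members and in 10.75% of all windows. These were Ltf, Ngp (with 2 matches), Lcn2 and S100a9, and none was a primary granule gene. The capitals mark the match, which in Ltf reads on the opposite strand:
Ltf, chr9:111019206-111019235, plus strand: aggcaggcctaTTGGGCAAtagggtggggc
Ngp, chr9:110419659-110419688, plus strand: gtcctggtttaTTGCCCAAacctccttgcc
Lcn2, chr2:32387937-32387966, minus strand: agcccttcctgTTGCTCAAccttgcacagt
S100a9, chr3:90695939-90695968, minus strand: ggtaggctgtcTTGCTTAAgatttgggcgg

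TAACNG was found in Mpo and Elane, 2 of 10 members, and in 23.2% of all windows. No match overlapped another, and the Camp window held none of these letters. Lcn2 carried the same letters as Ltf and Ngp although its counts did not follow theirs, and Camp followed them without a match. For Ctsg and S100a9, 1 gene of each set of shared pattern, the RefSeq and GENCODE starts are the same, and the 250 bases before the start are given in full with the matches in capitals:
Ctsg, chr14:56102575-56102824, minus strand: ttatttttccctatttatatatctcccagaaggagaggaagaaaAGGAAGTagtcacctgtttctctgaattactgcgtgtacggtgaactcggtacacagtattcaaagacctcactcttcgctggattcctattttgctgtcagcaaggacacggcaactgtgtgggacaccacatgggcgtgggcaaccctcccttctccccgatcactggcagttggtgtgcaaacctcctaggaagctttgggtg
S100a9, chr3:90695722-90695971, minus strand: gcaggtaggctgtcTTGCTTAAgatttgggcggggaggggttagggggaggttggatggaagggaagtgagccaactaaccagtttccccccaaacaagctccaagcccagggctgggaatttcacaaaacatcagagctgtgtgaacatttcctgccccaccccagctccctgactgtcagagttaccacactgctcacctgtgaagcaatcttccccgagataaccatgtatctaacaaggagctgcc

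A match describes these letters only and does not show binding.

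Between mice 3 and 4 and mice 1 and 2, all 10 members had a lower mean log2 value in mice 3 and 4, with a median log2 difference of -0.46 against -0.0072 over all genes tested. The mean normalized count was lower for 7 of them and higher for Mpo (100.2 against 83.0), Prtn3 (60.5 against 46.1) and Ctsg (29.1 against 22.6), which had their highest value in Elmo1+/- mouse 4. Only S100a8 passed the test, at a log2 of -0.61 ± 0.10 (standard error, adjusted p = 0.00242, limma with genotype as a further term), and its values in the sets did not overlap (exact permutation p = 0.0286, the smallest that 4 against 4 libraries allow). Between these sets 32.6% of all 14139 genes were called and 15.6% were called lower, so that 1 of 10 members lies below the background. The split had been seen in the principal components before it was used. The share of all genes whose values did not overlap between these sets is not given here, so the separation is not read as particular to S100a8. Ltf (-0.81 ± 0.59), Elane (-0.81 ± 0.76), S100a9 (-0.78 ± 0.62) and Ngp (-0.61 ± 0.44) had differences as large as that of S100a8 but spread too widely within the sets to pass. The signs of Mpo (-0.31), Prtn3 (-0.073) and Ctsg (-0.18) turned to 0.17, 0.35 and 0.41 with edgeR, which compares mean counts, and to 0.40, 0.60 and 0.64 without Elmo1+/- mouse 3.

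Genes with a pattern like the members were then sought among all genes tested. With the primary granule score, the 10 genes of highest r outside the members were Ppp2r2d, Npm3-ps1, Gm3571, Serpinb1a, Gm42595, Timm9, 3830403N18Rik, Hmgn1, Gars and Armc10, at r = 0.965 down to 0.908 over 8 libraries. Among them Serpinb1a (r = 0.942) encodes an inhibitor of elastase, cathepsin G and proteinase 3, and it had 50.6, 49.4, 25.9 and 89.5 normalized counts among Elmo1+/- and 59.6, 43.1, 63.4 and 47.5 among Elmo1-/- mice 1 to 4. Its highest library was Elmo1+/- mouse 4 and its lowest Elmo1+/- mouse 3, as for the granule proteases. Pseudogene entries such as Npm3-ps1 share sequence with other genes, and their counts are uncertain.

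With the secondary granule score the 10 most alike genes were Stard7, Clp1, Rpusd1, Ms4a4b, Tysnd1, Tchp, Arpc1a, Stfa2, Cenpt and Zfyve19 (r = 0.985 to 0.962). Stfa2, a stefin A gene of the cysteine protease inhibitors made by granulocytes, had 116, 175, 57.9 and 123 normalized counts among Elmo1+/- and 261, 63.5, 109 and 96.5 among Elmo1-/- mice 1 to 4, and belongs to a family of near-identical copies between which reads may be split. With the score of S100a8 and S100a9 they were Shld1, Mir142hg, Ankzf1, Rps19, Gm10327, Adprm, Blvra, Lbp, Zfp524 and Gm16536 (r = 0.997 to 0.972). With 8 libraries many genes reach such values, and most of these genes spanned a narrow range. Ppp2r2d, for example, lay between 1131 and 1317 normalized counts.

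Further granule genes, a list of 28 of which 27 were tested, carried the same 2 patterns in part. Ms4a3, a marker of granulocyte-monocyte progenitors, had 32.2, 27.7, 16.8 and 89.5 normalized counts among Elmo1+/- and 23.7, 22.8, 20.9 and 19.5 among Elmo1-/- mice 1 to 4, with r = 0.859 to Mpo and 0.298 to Ngp. Its single high library was Elmo1+/- mouse 4. Pglyrp1, a peptidoglycan recognition protein of secondary granules, had 23.0, 44.5, 10.7 and 48.5 among Elmo1+/- and 97.4, 14.4, 35.1 and 32.7 among Elmo1-/- mice 1 to 4. Its r was 0.931 to Ngp and 0.756 to Mpo. Chil3 (r = 0.927 to Ngp), Stfa2l1 (0.912) and Itgb2l (0.905) also had Elmo1-/- mouse 1 as their highest library. To Mpo these had r = 0.766, 0.690 and 0.541. Stfa1 followed both patterns, with r = 0.910 to Mpo and 0.888 to Ngp, so the patterns were not cleanly parted in this list. Other genes of the list did not move with Ngp, among them Hp (0.143), Mmp9 (-0.511) and Mmp8 (-0.769), which were expressed at 1340 counts or more in every library. Genes at lower levels also did not, among them Bpi (-0.586, at 21.8 to 114 normalized counts), Abca13 (-0.359) and Ceacam10 (0.0086). With Mpo, Bpi had r = -0.202, Srgn -0.0026 and Cd63 0.108.

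By genotype 0 of these 27 genes were called, with a median log2 difference of -0.012. The highest was Pglyrp1 (0.39) and the lowest Ms4a3 (-0.64). Hp, haptoglobin (0.29, unadjusted p = 0.0177, adjusted p = 0.9999), and Stfa3 (-0.27, unadjusted p = 0.0370, adjusted p = 0.9999), both by limma, had an unadjusted p under 0.05. Between mice 3 and 4 and mice 1 and 2, 7 were called lower, for example Lyz2, the myeloid lysozyme (-0.52 on the log2 scale), and Cd177 (-1.55), and 2 higher, Bpi (1.48) and Mmp9, gelatinase B (0.60). These 9 of 27 genes (33.3%) are near the 32.6% called over all genes tested, with 25.9% of the list called lower against 15.6% of all genes.

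Of the 9 factors and receptors that direct granulocyte differentiation, 7 were tested, and 0 were called by genotype (Cebpe -0.095 as the lowest and Csf3r, the G-CSF receptor, 0.12 as the highest log2 difference). Cebpe, the C/EBP factor required for secondary granule genes, was at 38.9 to 65.3 normalized counts and had r = 0.397 to Ngp. Gfi1 and Myb fell below the filter. Cebpa, Cebpd and Runx1 were called lower in mice 3 and 4, by 0.29, 0.63 and 0.27 on the log2 scale, where 15.6% of all genes were called lower. The 6 receptors and partners of calprotectin were all tested and 0 were called by genotype, with Ager, the RAGE gene, highest at 0.50 and Tlr4 lowest at -0.066. Tlr4, Cd14, Ager and Cd36 (66.7% of those tested) were called lower in mice 3 and 4, against 15.6% of all genes. Of 8 other S100 genes 6 were tested and 0 were called by genotype (S100a6 lowest at -0.12 and S100a11 highest at 0.013). S100a6 (r = 0.946 to S100a8, 9754 to 18997 normalized counts), S100a4 and S100a13 were called lower in mice 3 and 4. These are 50% of the other S100 genes tested, against 15.6% of all genes.

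Markers of the cells that could carry granule transcripts are given for the whole lists, and their part in the results was not tested. No marker below was called by genotype. Of 9 mature neutrophil markers 8 passed the filter, with log2 differences by genotype from -0.13 (Cd177) to 0.24 (Cxcr2). Ly6g, the defining surface protein, did not, at 1.20 to 10.4 normalized counts, highest in Elmo1-/- mouse 1. Cxcr2, the neutrophil chemokine receptor, had 11.96, 45.5, 9.14 and 19.99 normalized counts among Elmo1+/- and 57.7, 18.0, 12.5 and 15.6 among Elmo1-/- mice 1 to 4 (r = 0.859 to Ngp). Retnlg had 28.5, 36.6, 3.05 and 11.4 among Elmo1+/- and 75.7, 2.395, 11.7 and 14 among Elmo1-/- mice 1 to 4 (r = 0.803 to Ngp). These markers thus had the same highest library as Ltf, Ngp and S100a9. This was not particular to them, since Elmo1-/- mouse 1 was also highest for Fpr1, Fpr2, Irf8 and the macrophage markers Csf1r and Fcgr1. The same library was lowest for Ctsk (69531) and Acp5 (69893). On the first principal component it lay at -52.3, with the other libraries at -26.3 to 31.9. The summed level of the list, 26781 to 36287 among Elmo1+/- and 28983 to 37906 in Elmo1-/- libraries, came mostly from Fpr1, Fpr2 and Mmp8, which did not follow the granule genes (r to Ngp 0.330, 0.348 and -0.769).

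Of 7 progenitor markers 4 were tested and Cd34, Flt3 and Myb fell below the filter. Kit was at 11.04 to 21.8 normalized counts, and the list summed to 3970 to 4992 among Elmo1+/- and 4015 to 5282 in Elmo1-/- libraries, nearly all of it Cd48. By genotype Kit was highest (log2 difference 0.32) and Ms4a3 lowest. The 5 monocyte markers reported were all tested, with sums of 2951 to 4390.5 among Elmo1+/- and 2874 to 5523 in Elmo1-/- libraries. By genotype Fcnb was highest (0.50) and Ccr2 lowest (-0.25), with 0 called. Ly6c2 (r = 0.882 to Ngp) had its highest value in Elmo1-/- mouse 1.

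Markers of other blood and stromal cells differed widely in level, with Pf4 the highest at 20378 to 27357 normalized counts. Of 7 eosinophil markers only Prg2 passed the filter (log2 difference by genotype 0.35), with sums of 23.9 to 49.5 among Elmo1+/- and 24.0 to 68.5 in Elmo1-/- libraries. None of 5 basophil and mast cell markers passed it (sums of 10.7 to 22.1 and 19.2 to 26.5), and of 6 B and T cell markers only Lck did (-0.17; sums of 7.91 to 21.1 and 10.8 to 22.7). Hbb-bs, a globin gene, was at 0 in every library, and of 6 erythroid and platelet markers only Pf4 (0.14) and Ppbp (0.029) passed, which made up nearly all of sums of 21583 to 29764 and 27990 to 28452. Of 5 stromal markers 4 were tested, from Col3a1 (-0.094) to Col1a1 (0.15), with sums of 584 to 1291 among Elmo1+/- and 583 to 1297 in Elmo1-/- libraries. The 6 macrophage markers (sums of 149077 to 200225 and 164410 to 204138; Mrc1 -0.15 to Fcgr1 0.41) and the 9 osteoclast markers (sums of 247625 to 608498 and 157476 to 650482; Ctsk -0.30 to Ocstamp 0.026) were all tested, and 0 of either list were called by genotype.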

How the data were processed

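mRNA libraries of 8 osteoclast cultures were compared, 4 Elmo1-/- and 4 Elmo1+/-, grouped by their genotype labels. Per the submitters' processing notes, FastQC, STAR, featureCounts and DESeq2 were used, with no versions listed, and the genome build and the annotation they used are not stated in any source used here. The values the authors deposited are a normalized signal: read counts per gene divided by 1 size factor per library. The table also holds the authors' comparison of the genotypes (log2 fold change, standard error, statistic and p-values), which was not used. Symbols, positions and exon lengths came from GENCODE mouse release 21 (GRCm38), which matched 46005 of 46517 identifiers.

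The tests were limma 3.58.1 in R 4.3.3, with trend and robust moderation, on log2(normalized count + 1) at an adjusted p of 0.05, and exact permutation tests over libraries (scipy 1.17.1). Alternatives were edgeR 4.0.16 and DESeq2 1.42.0 on whole reads recovered from the values (100% of values whole to within 0.01 of a read), other pseudocounts, filters and scalings, leaving out each library and the replicate number as a block. Correlations used log2(normalized count + 1). Scripts were tested on simulated data. Promoter windows came from RefSeq.

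The members, lists and tests were chosen with earlier results of these data known. Genes named outside the members are, from each list, the highest and lowest by genotype and any at an unadjusted p under 0.05, the 10 most alike to each score, and Elmo1. Of the monocyte markers, 1 is not reported here and was left out of the list. Genes called between the number sets and list genes alike or unlike Mpo, Ngp or S100a8 were named after their values were seen. No 2 libraries of a genotype were copies (chi-square per gene 8.58 to 188). Libraries of the same number deviated together from their genotype means (r across genes 0.156 to 0.704 over the 4 pairs), and each of these exceeded 0.1, but libraries of unlike number within mice 1 and 2 or within mice 3 and 4 reached 0.0259 to 0.691, so that the numbers were not told apart from these 2 sets, and what they stand for is not stated. The tests printed do not use the pairing, and the fit with the block is an alternative. The p-values between groups measure the spread between libraries, in which mouse, culture and experiment cannot be told apart. Those of gene pairs treat all 8 libraries as exchangeable and leave the 2 sets out of account. Intervals cover counting error only.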

Additional observations from a re-analysis of the deposited data

Results flagged for a closer look

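S100a9 in Elmo1-/- mouse 1 lay far from the other Elmo1-/- libraries, at 4040 normalized counts against 874 to 1407 in mice 2 to 4. The gap to its nearest neighbour was 0.8315 of the whole range of the group, above Dixon's 95% limit for 4 values. It was taken on normalized counts, whereas the other tests used log2 values, and whether it would pass on the log2 scale was not examined. Of 20 groups examined, 10 members in each genotype, this was the only 1, and chance gives 1 in 20. The same library was highest for Ltf, Camp and Ngp, whose gaps did not reach the limit.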

How the results depend on the processing

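Members called between genotypes stayed at 0 under every alternative run, out of 10 members in each except with a filter of 50, which left 7. The paired fit with the replicate block called 1 gene of all those tested, as the fit without it did, and changed no call. Genes called between genotypes over the whole table were 2 with DESeq2, 2 within mice 3 and 4 alone and 1 to 2 when 1 library was left out. The log2 differences by genotype turned sign within mice 1 and 2 for Prtn3 (0.10), Lcn2 (-0.11) and S100a9 (-0.047) and within mice 3 and 4 for Elane (0.26), settings added after the data were seen. Leaving out 1 library gave ranges that crossed 0 for Mpo (-0.96 to 0.29), Elane (-1.10 to 0.17), Prtn3 (-0.66 to 0.53), Ctsg (-1.25 to 0.023), Ltf (-0.088 to 0.80), Ngp (-0.0052 to 0.60), Lcn2 (-0.11 to 0.14) and S100a9 (-0.33 to 0.45), and kept their sign for Camp and S100a8. Between the number sets S100a8 was called under every alternative run. The differences turned positive with DESeq2 for Mpo (0.093), Prtn3 (0.28) and Ctsg (0.32) and with edgeR for the same genes (0.17, 0.35 and 0.41), and ranged over left-out libraries from -1.09 to 0.40 for Mpo, -1.47 to 0.048 for Elane, -0.83 to 0.60 for Prtn3 and -0.88 to 0.64 for Ctsg. All genes called between the number sets, 4603, ranged from 2863 without Elmo1+/- mouse 1 to 6911 without Elmo1-/- mouse 2, and members called from 1 to 2, the latter without Elmo1-/- mouse 2, where Lcn2 passed as well (-0.39, adjusted p = 0.00658 by limma). Pairs of members at an r of at least 0.8, 12 of 45, were 6 of 21 with a filter of 50, which removes Elane, Prtn3 and Ctsg, and 11 to 21 of 45 when 1 library was left out, lowest without Elmo1+/- mouse 3 and highest without Elmo1+/- mouse 4. Where no construction of the setting shows it, the cause was not tested. Depth limits the primary granule genes most, since Elane and Ctsg rest on 1 and 3 reads in Elmo1+/- mouse 3.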
